A study of Mus musculus with 12 samples.

Results

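The p53 pathway and target genes considered here are 32 genes chosen for their known place in the pathway and found in the expression table by their full gene names. All 32 were found among the 58735 genes listed, and 31 of them had a mean of at least 0.5 FPKM (fragments per kilobase of gene length, corrected for the size of the library) over the 12 libraries and were tested. The remaining member, SPATA18, a gene of mitochondrial quality control, was read at most 5 times in a library and not at all in 8 libraries. The members were grouped by role into negative feedback on p53 (3 genes), cell cycle control (6), DNA repair and nucleotide supply (5), apoptosis and death receptors (12, SPATA18 included) and metabolism and secreted factors (6). The grouping is loose. FDXR, a mitochondrial enzyme, is listed with the DNA repair genes, and ZMAT3, an RNA-binding protein, with the metabolic and secreted genes, without having those roles.

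The libraries came from U2OS, a human osteosarcoma cell line that carries wild-type p53. Blank U2OS cells, cells given the siRNA siSRSF1-2 or siSRSF1-3 against the splicing factor SRSF1, and cells with raised LINC01134, a long non-coding RNA (OE-LINC01134), were each sequenced in 3 libraries. No control siRNA or empty vector was among the samples analysed here, so transfection and the siRNA or transgene cannot be told apart in any difference from blank. The labels name U2OS, whereas the methods of the study place transient transfection in HOS, another osteosarcoma line. The labels do not say whether the 3 libraries of a group came from separate cultures. The study's supplementary methods speak of biological replicates, but with another number per condition than the libraries listed, and a legend speaks of experimental repeats. The p-values measure the spread between these libraries, whichever it is.

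p53 is a transcription factor that is held at a low level by the ubiquitin ligase MDM2 and its partner MDM4. DNA damage, free ribosomal proteins and other stresses loosen that hold, and p53 then switches on genes that stop the cell cycle, repair DNA, trigger apoptosis and, through MDM2 and the phosphatase PPM1D, limit p53 itself. Several of these targets also answer to other stress factors, among them GDF15 and GADD45A, which ATF4 can induce.

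Each library had between 26237763 and 32954539 reads on genes. SRSF1 stood at 35.9, 19.8 and 20.5 FPKM in the blank libraries, at 7.09, 7.46 and 7.41 with siSRSF1-2 and at 3.33, 6.81 and 7.90 with siSRSF1-3. LINC01134 stood at 0.791, 0.519 and 0.497 FPKM in blank cells and at 891, 1279 and 878 in the overexpressing libraries. SRSF1 with either siRNA and LINC01134 with its overexpression did not overlap the blank libraries, and each exact two-sided permutation test against blank gave p = 0.1, the smallest that 3 against 3 libraries allow. The mesenchymal genes VIM, COL1A1, SPARC, RUNX2, S100A4, CD44 and THY1 were present in every library (at least 1.55 FPKM), while COL1A2 was at most 0.0131. The 10 epithelial, blood, endothelial and muscle markers summed to between 1.81 and 2.90 FPKM in the blank, OE-LINC01134 and siSRSF1-2 libraries and to between 3.20 and 3.31 with siSRSF1-3, with EPCAM at 0.918 to 2.43, CDH1 at 0.345 to 0.862 and CD3E at 0. Their part in the members' values was not tested.

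Some libraries stood apart from their own group. Over all genes tested, the SD of the log2 difference was 0.454 between blank replicates 2 and 3, but 0.757 and 0.747 between either of them and blank replicate 1, which lay nearer to OE-LINC01134 replicate 2 (0.658). OE-LINC01134 replicates 1 and 3 likewise differed by 0.454, and replicate 2 differed from them by 0.723 and 0.732. With siSRSF1-3, replicates 1 and 2 differed from replicate 3 by 1.30 and 0.93, and replicate 3 lay nearer to the first siSRSF1-2 library (0.578). The 3 siSRSF1-2 libraries differed by 0.440 to 0.456. Between 2 of them, the median chi-square of the reads per gene was 2.09 to 2.47 times that of counting noise alone. A small p with siSRSF1-2 rests in part on that narrow spread. Blank replicates 2 and 3 had 2.15, and blank replicate 1 had 23.1 and 24.1 against them. Over the 31 members, the median absolute log2 difference was 0.0427 between blank replicates 2 and 3, and 0.248 and 0.293 between them and blank replicate 1.

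**Figure D1:**
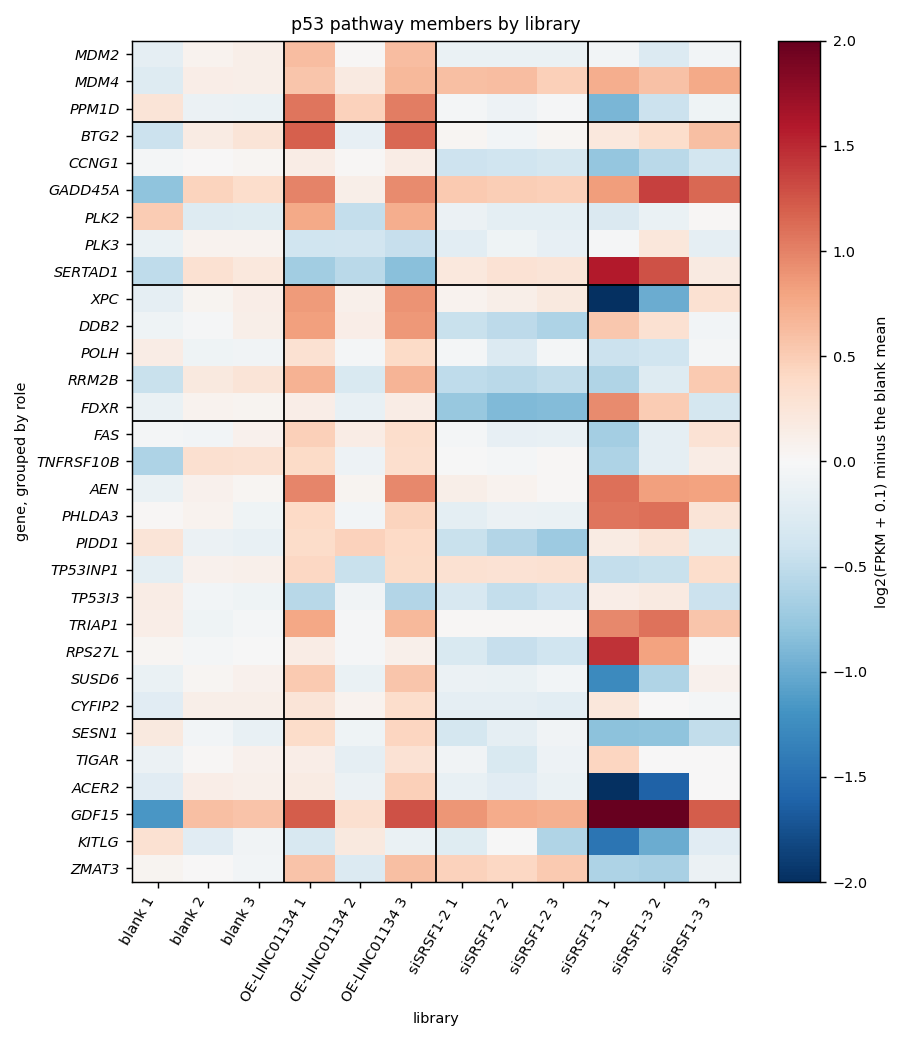
Log2(FPKM + 0.1) of the 31 tested members (rows, grouped by role in the order of the text) in each of the 12 libraries (columns), minus the mean of the 3 blank libraries; colours saturate at 2 in either direction. OE-LINC01134 replicates 1 and 3 were above the blank mean in 27 of 31 members, and replicate 2 in 13; siSRSF1-3 replicates 1 and 2 hold the darkest cells, GDF15 above and ACER2 and XPC below.

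In none of the 4 comparisons did a member pass the threshold in limma on log2(FPKM + 0.1), which asked for a log2 fold change beyond 1 in either direction and for p under 0.05 after Benjamini-Hochberg adjustment. All fold changes below are on that scale, which understates the change of genes of low level. The threshold was passed by 1.26% of all genes tested for siSRSF1-3 against blank, by 4.95% for siSRSF1-2, by 0.85% for OE-LINC01134 and by 0.0855% for siSRSF1-3 against siSRSF1-2. At an unadjusted p under 0.05, the members numbered 9, 10, 10 and 12 of 31 in the same order (29%, 32.3%, 32.3% and 38.7%), where 28.8%, 40.3%, 26.3% and 42.1% of all genes had one. Limma's voom on the recovered reads also placed 0 members past the threshold in each comparison. In the FPKM fit, SRSF1 itself passed the threshold with siSRSF1-2 (log2 fold change -1.72) but not with siSRSF1-3 (-2.09). A count of 0 members with siSRSF1-3 therefore does not show that they were unchanged.

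With siSRSF1-2, 8 of 31 members had an adjusted p under 0.05 at any fold. FDXR, DDB2, CCNG1, RPS27L, TP53I3 and PIDD1 were lower than in blank cells, and MDM4 and ZMAT3 were higher. That is 6 members lower, where 12.8% of all genes tested were lower by the same rule, and 2 higher, where 14% were. Groups did not overlap in 5 members that were higher (25.3% of all genes) and in 8 that were lower (24.2% of all genes). In the fit over all 4 groups the count by adjusted p was 0, without blank replicate 1 it was 19, and without siSRSF1-2 replicate 1, 2 or 3 it was 5, 4 and 4. All genes in these fits met the same rule in 3.76%, 52.2%, 12.1%, 10.7% and 10.4% of cases, and the members in 0%, 61.3%, 16.1%, 12.9% and 12.9%. The median log2 fold change of the members was -0.13, against 0.02 over all genes.

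With siSRSF1-3, the members went in both directions and by larger amounts. Of the 31, 15 had a positive and 16 a negative log2 fold change, with a median of -0.04 against -0.01 over all genes and a range from -1.39 (ACER2) to 1.76 (GDF15). No member had an adjusted p under 0.05 at any fold, where 1.28% of all genes had. Groups did not overlap in 6 members that were higher (19.2% of all genes) and 3 that were lower (18% of all genes). Without siSRSF1-3 replicate 3, 8 members passed the threshold: GDF15, PHLDA3, RPS27L, SERTAD1 and TRIAP1 higher, and ACER2, KITLG and XPC lower. That is 25.8% of the members, and 23.9% of all genes passed in the same fit. At any fold, 15 members had an adjusted p under 0.05 in it (48.4%), where 35.9% of all genes had. In the fit over all 4 groups, GADD45A, GDF15 and SERTAD1 passed the threshold, 9.68% of the members where 13.8% of all genes did. At any fold, 9 members had an adjusted p under 0.05 in that fit (29%), where 27.8% of all genes had.

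With OE-LINC01134, 27 of 31 members had a positive log2 fold change and the median was 0.30, against 0.05 over all genes. No member had an adjusted p under 0.05 at any fold, where 1.18% of all genes had. The groups did not overlap in 5 members that were higher (16.8% of all genes) and in 2 that were lower (13.8% of all genes). The medians per library were 0.42 and 0.44 in replicates 1 and 3 and -0.04 in replicate 2, so the shift was not shared by the library that stood apart. Without OE-LINC01134 replicate 2, BTG2 and PPM1D passed the threshold, 6.45% of the members where 8.78% of all genes did. At any fold, 14 members had an adjusted p under 0.05 in that fit (45.2%), where 25.5% of all genes had. With blank replicate 1 left out as well, 26 had (83.9%), where 59.7% of all genes had. Without blank replicate 1 alone, 4 had (12.9%), where 13.9% of all genes had.

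**Figure D2:**
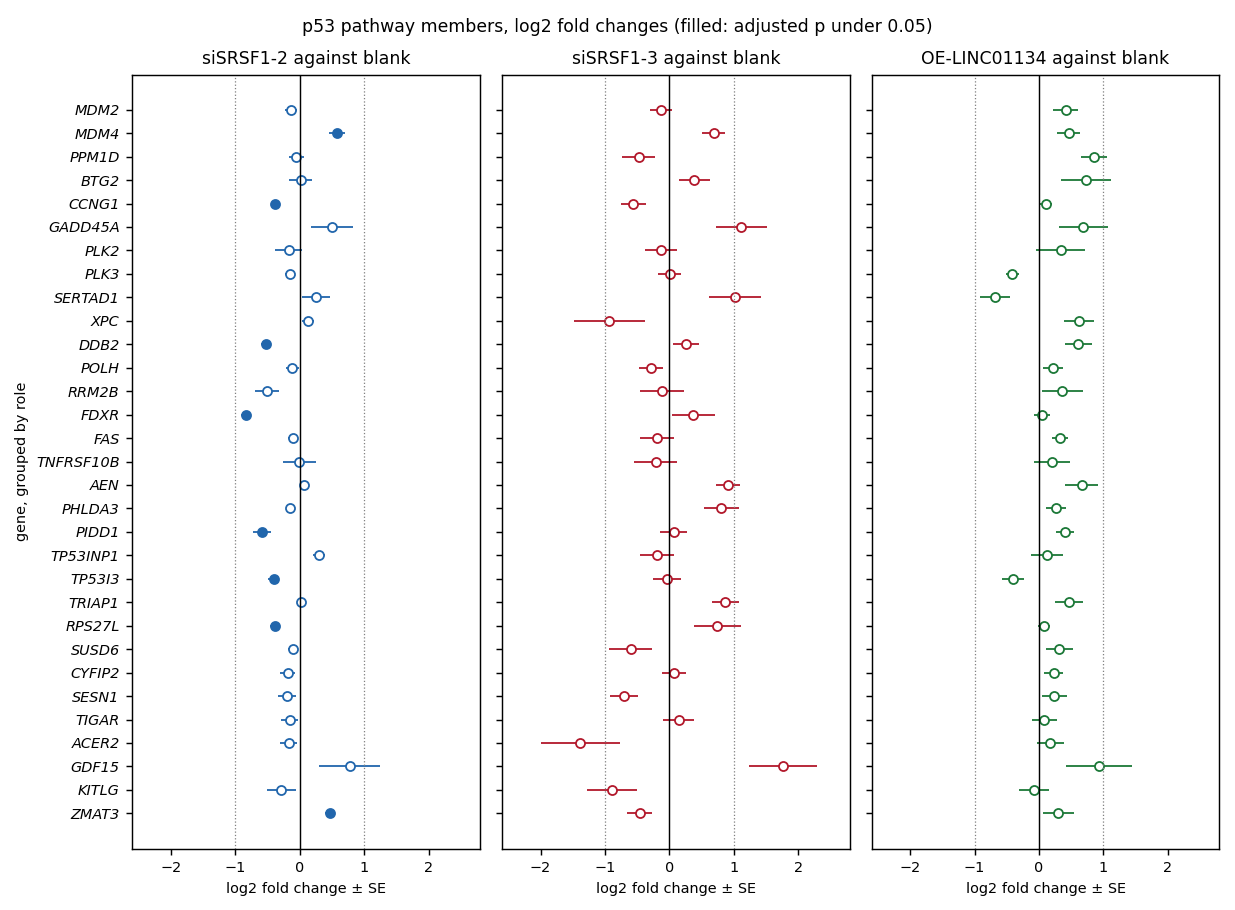
Log2 fold change against blank with its standard error from limma (horizontal axis) for the 31 tested members (rows), in 1 panel per condition; filled points have an adjusted p under 0.05 and dotted lines mark a log2 fold change of 1 in either direction. Filled points occur with siSRSF1-2 alone, 8 in all and each within the dotted lines; the error bars are longest with siSRSF1-3.

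MDM2 (ENSG00000135679, chromosome 12, 68808176 to 68850686), the ligase that marks p53 for degradation and is itself a p53 target, was close to its blank level with both siRNAs. It stood at 8.97, 10.7 and 10.99 FPKM in blank cells, at 9.24, 9.26 and 9.26 with siSRSF1-2 and at 9.80, 8.43 and 9.77 with siSRSF1-3. The log2 fold changes were -0.13 (SE 0.09, limma adjusted p = 0.319) and -0.13 (SE 0.17, adjusted p = 0.630), and both groups overlapped the blank libraries. The gene coordinates are those of the deposited table, for which the sources used here name no human genome build. In OE-LINC01134 cells MDM2 stood at 15.7, 10.3 and 15.6 FPKM. Replicates 1 and 3 were above every blank library and replicate 2 was among them, with a log2 fold change of 0.41 (SE 0.19, adjusted p = 0.226).

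MDM4 (chromosome 1, 204516379 to 204558120), which binds p53 and blocks its activity, was above every blank library in all 9 treated libraries. Blank cells had 4.51, 5.95 and 5.89 FPKM. The siSRSF1-2 libraries had 8.30, 8.38 and 7.60, the siSRSF1-3 libraries 8.99, 8.14 and 9.21, and the OE-LINC01134 libraries 7.97, 6.13 and 8.51. The log2 fold change was 0.57 (SE 0.12, adjusted p = 0.0209) with siSRSF1-2, 0.69 (SE 0.18, adjusted p = 0.0898) with siSRSF1-3 and 0.46 (SE 0.18, adjusted p = 0.170) with OE-LINC01134. These comparisons share the blank libraries.

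PPM1D (chromosome 17, 60600183 to 60666280) encodes a phosphatase that switches off p53 and the kinases above it. Its blank values were 11.8, 9.09 and 9.07 FPKM, and OE-LINC01134 cells had 20.9, 13.6 and 20.3. All 3 overexpressing libraries were above the blank ones, replicate 2 by the least, with a log2 fold change of 0.85 (SE 0.20, adjusted p = 0.0789) that became 1.05 without that library (adjusted p = 0.0117). The values were 9.62, 9.23 and 9.79 with siSRSF1-2 and 5.20, 7.32 and 9.37 with siSRSF1-3, both overlapping the blank range.

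**Figure D3:**
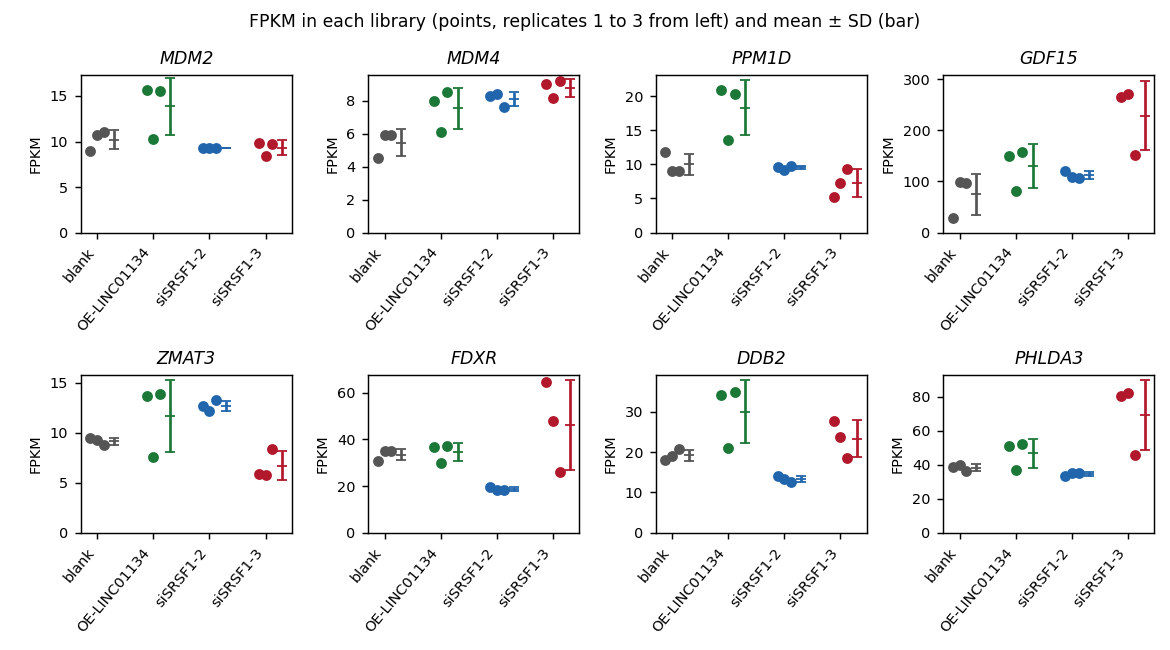
FPKM (vertical axis, from 0) of 8 members in the 3 libraries of each group, with the mean ± SD beside the points. MDM2 overlaps the blank libraries with both siRNAs, MDM4 lies above the blank libraries in every treated group, and FDXR, DDB2 and PHLDA3 lie below the blank libraries with siSRSF1-2.

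Among the cell cycle genes, CCNG1, a cyclin that recruits a phosphatase to MDM2, was below the blank range with both siRNAs. It stood at 68.6, 71.0 and 72.9 FPKM in blank cells, at 53.1, 53.8 and 55.6 with siSRSF1-2 and at 41.3, 48.5 and 55.0 with siSRSF1-3. The log2 fold changes were -0.39 (SE 0.05, adjusted p = 0.00529) and -0.56 (SE 0.19, adjusted p = 0.126). OE-LINC01134 libraries had 78.8, 71.9 and 78.8 FPKM and overlapped the blank range.

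SERTAD1, a regulator of CDK4 and E2F activity, differed most among the siSRSF1-3 libraries, at 40.5, 32.4 and 15.2 FPKM. Blank cells had 9.34, 16.5 and 15.6, so replicate 3 was within the blank range. It was at 15.5, 16.4 and 16.0 FPKM with siSRSF1-2 and at 8.24, 9.21 and 7.43 with OE-LINC01134. The last were below every blank library, by a margin that was narrow for blank replicate 1 (log2 fold change -0.69, SE 0.23, adjusted p = 0.131).

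PLK3, a stress-responsive kinase, was also below every blank library with OE-LINC01134, at 13.8, 13.99 and 13.2 FPKM against 16.6, 19.1 and 19.1 (log2 fold change -0.41, SE 0.11, adjusted p = 0.0885). The siRNA libraries overlapped the blank range, with 15.8, 17.1 and 16.3 FPKM for siSRSF1-2 and 17.8, 21.2 and 16.1 for siSRSF1-3. GADD45A, which restrains the entry into mitosis after damage, had a blank range from 106 to 251 FPKM, its lowest value being blank replicate 1. All 6 siRNA libraries were above it, from 257 to 477, with adjusted p = 0.300 and 0.132 for siSRSF1-2 and siSRSF1-3. BTG2, an antiproliferative gene, was at 39.3, 15.3 and 38.1 FPKM with OE-LINC01134 against 12.7, 19.2 and 20.5 in blank cells, and PLK2 overlapped the blank range in every condition.

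In the DNA repair and nucleotide group, FDXR and DDB2 were lower with siSRSF1-2. FDXR (chromosome 17, 74862497 to 74873031), a mitochondrial electron carrier enzyme used as a transcript marker of radiation exposure, had 30.6, 35.0 and 34.9 FPKM in blank cells and 19.8, 18.2 and 18.4 with siSRSF1-2. The groups were well apart, with a log2 fold change of -0.83 (SE 0.08, adjusted p = 0.00208), the smallest adjusted p of any member. FDXR had log2 fold changes from -0.89 to -0.70 over alternative fits, and in the fit over all 4 groups its adjusted p was not under 0.05. With siSRSF1-3 it had 64.4, 47.8 and 26.2 FPKM, so 2 libraries were above and 1 below the blank range. OE-LINC01134 libraries had 36.7, 30.1 and 37.1.

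DDB2 (chromosome 11, 47214465 to 47239240), which recognises ultraviolet damage for nucleotide excision repair, had 18.01, 18.9 and 20.7 FPKM in blank cells. With siSRSF1-2 it had 14.1, 13.3 and 12.5, all below the blank range (log2 fold change -0.53, SE 0.08, adjusted p = 0.00727). With OE-LINC01134 it had 34.1, 20.95 and 34.99, all above it, replicate 2 only just (0.61, SE 0.21, adjusted p = 0.138). The siSRSF1-3 libraries had 27.8, 23.8 and 18.5 and overlapped the blank range.

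XPC, the partner of DDB2 in damage recognition, was at 2.18, 4.82 and 12.04 FPKM with siSRSF1-3 against 8.57, 10.1 and 10.6 in blank cells, so the 3 libraries lay on both sides of the blank range. Its log2 fold change was -0.93 (SE 0.55, adjusted p = 0.283). RRM2B, a ribonucleotide reductase subunit, was below the blank range with siSRSF1-2, at 31.3, 30.5 and 31.6 FPKM against 32.5, 51.1 and 52.99 (adjusted p = 0.0970). POLH, the polymerase that copies past ultraviolet lesions, had values from 8.46 to 14.8 FPKM over the 12 libraries.

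Of the apoptosis group, AEN and TRIAP1 were above every blank library with siSRSF1-3 in all 3 libraries. AEN (chromosome 15, 88621296 to 88632282), an apoptosis-enhancing nuclease, had 27.6, 31.9 and 31.0 FPKM in blank cells and 64.6, 53.2 and 52.6 with siSRSF1-3, a log2 fold change of 0.91 (SE 0.18, adjusted p = 0.0575). It had 32.8, 31.5 and 30.7 with siSRSF1-2 and 59.1, 31.2 and 58.7 with OE-LINC01134. In both of these at least 1 library was within the blank range.

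TRIAP1, a small inhibitor of apoptosis in mitochondria, had 34.8, 30.1 and 31.1 FPKM in blank cells and 62.1, 68.1 and 47.0 with siSRSF1-3 (log2 fold change 0.87, SE 0.21, adjusted p = 0.0772). The siSRSF1-2 libraries, at 32.6, 32.3 and 32.5, were within the blank range. OE-LINC01134 libraries had 54.8, 31.4 and 49.9.

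PHLDA3, which competes with AKT for membrane lipids, had 38.9, 40.2 and 36.2 FPKM in blank cells. It had 33.4, 35.5 and 35.0 with siSRSF1-2, all just below the blank range, and 80.6, 82.3 and 45.8 with siSRSF1-3, all above it. The log2 fold changes against blank were -0.15 (SE 0.06, adjusted p = 0.135) and 0.81 (SE 0.27, adjusted p = 0.122). OE-LINC01134 libraries had 50.9, 37.0 and 52.2.

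RPS27L, a ribosomal-protein-like p53 target that binds MDM2, had 24.3, 23.2 and 23.7 FPKM in blank cells and 19.1, 17.2 and 17.9 with siSRSF1-2 (log2 fold change -0.39, SE 0.06, adjusted p = 0.00860). With siSRSF1-3 it had 65.1, 41.5 and 23.5, the third within the blank range, and with OE-LINC01134 26.4, 23.3 and 25.5. Reads of this gene may be shared with its near relative RPS27, which the table does not resolve.

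PIDD1, a death-domain protein that activates caspase-2, had 7.99, 6.17 and 6.02 FPKM in blank cells and 4.87, 4.44 and 4.01 with siSRSF1-2 (log2 fold change -0.58, SE 0.14, adjusted p = 0.0268). With OE-LINC01134 it had 8.60, 9.17 and 8.80, above every blank library (0.40, SE 0.14, adjusted p = 0.143), and with siSRSF1-3 7.52, 8.003 and 5.66. TP53I3, an oxidoreductase linked to oxidative stress, was at 24.0, 21.6 and 22.3 FPKM with siSRSF1-2 against 33.1, 28.9 and 28.1 in blank cells (log2 fold change -0.40, SE 0.08, adjusted p = 0.0185).

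The death receptors did not stand apart with either siRNA. FAS ranged from 3.83 to 8.68 FPKM over the 12 libraries and TNFRSF10B, the TRAIL receptor, from 31.9 to 63.8, with blank replicate 1 the lowest for the latter. FAS was above every blank library with OE-LINC01134 (log2 fold change 0.32, SE 0.13, adjusted p = 0.176). TP53INP1, a promoter of p53 phosphorylation and autophagy, was above every blank library with siSRSF1-2 (0.30, SE 0.10, adjusted p = 0.0660). SUSD6 ranged from 3.03 to 11.1 FPKM and CYFIP2 from 5.34 to 8.01.

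In the metabolic and secreted group, GDF15 (chromosome 19, 18374731 to 18389176), a secreted stress cytokine, had the largest log2 fold change of any member with siSRSF1-3. It stood at 29.0, 99.0 and 96.4 FPKM in blank cells and at 265, 270 and 152 with siSRSF1-3, with no overlap (1.76, SE 0.52, adjusted p = 0.104). It had 121, 109 and 106 with siSRSF1-2, also above the blank range, and 150, 81.3 and 158 with OE-LINC01134. Blank replicate 1 was far below the other 2 blank libraries, and without it the log2 fold change with siSRSF1-3 was 1.18.

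ZMAT3, a zinc finger protein that binds RNA and guides splicing and mRNA stability, had 9.48, 9.24 and 8.77 FPKM in blank cells. It had 12.6, 12.2 and 13.2 with siSRSF1-2, all above the blank range (log2 fold change 0.47, SE 0.07, adjusted p = 0.00602), and 5.93, 5.80 and 8.41 with siSRSF1-3, all below it (-0.46, SE 0.20, adjusted p = 0.177). OE-LINC01134 libraries had 13.6, 7.56 and 13.9, on both sides of it.

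SESN1, a sestrin that restrains mTORC1, was at 2.74, 2.29 and 2.13 FPKM in blank cells and at 1.29, 1.32 and 1.67 with siSRSF1-3, all below (log2 fold change -0.70, SE 0.22, adjusted p = 0.109). It was at 1.84, 2.08 and 2.26 with siSRSF1-2 and at 3.10, 2.22 and 3.23 with OE-LINC01134, and both overlapped the blank range. ACER2, an alkaline ceramidase, was at 0.251, 0.562 and 1.93 FPKM with siSRSF1-3 against 1.63, 2.12 and 2.09 in blank cells. The lowest of these values rests on 11 reads, the fewest of any tested member in any library. KITLG, the ligand of the receptor KIT, was at 0.411, 0.609 and 1.11 FPKM with siSRSF1-3 against 1.65, 1.10 and 1.24, and TIGAR, which diverts glucose into the pentose phosphate pathway, ranged from 0.986 to 1.70 FPKM over all libraries.

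The siRNAs were also compared directly. Groups did not overlap in 12 members that were higher with siSRSF1-3 than with siSRSF1-2 (27% of all genes) and in 2 that were lower (27.6% of all genes), SESN1 and ZMAT3. The smallest p belonged to AEN (log2 difference 0.84, SE 0.13), ZMAT3 (-0.93, SE 0.17), TRIAP1 (0.84, SE 0.17), DDB2 (0.79, SE 0.17) and PHLDA3 (0.96, SE 0.25). Their adjusted p ran from 0.0638 for AEN to 0.0801 for PHLDA3, so none passed, and no member had an adjusted p under 0.05 at any fold, where 0.0855% of all genes had. MDM2 differed by 0.01 (SE 0.11, adjusted p = 0.957). Without siSRSF1-3 replicate 3, 9 members passed the threshold: ACER2, XPC and ZMAT3 lower, and FDXR, GDF15, PHLDA3, RPS27L, SERTAD1 and TRIAP1 higher. That is 29% of the members, and 30.6% of all genes passed in the same fit. At any fold, 21 members had an adjusted p under 0.05 in it (67.7%), where 61.2% of all genes had.

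The siSRSF1-3 differences moved with gene length. Over all genes tested, siSRSF1-3 replicates 1 and 2 had median log2 differences from blank of 0.36 and 0.27 for genes under 2500 bases and -0.29 and -0.23 for genes over 5000 bases. Replicate 3 had 0.10 and 0.02. The 6 members under 2500 bases, GADD45A, SERTAD1, TP53I3, TRIAP1, ACER2 and GDF15, had medians of 0.89, 1.18 and 0.37 in the 3 libraries, and the 14 members over 5000 bases had -0.54, -0.26 and -0.02. In both replicates 1 and 2, ACER2 was below the blank mean in the short class, and 5 of the 14 long members were above it: AEN, CYFIP2, MDM4, PIDD1 and RPS27L. After a loess trend on gene length was removed from each library, the log2 fold change with siSRSF1-3 was 1.53 for GDF15, 1.03 for AEN (adjusted p = 0.0503) and 0.96 for MDM4, and no member passed the threshold.

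**Figure D4:**
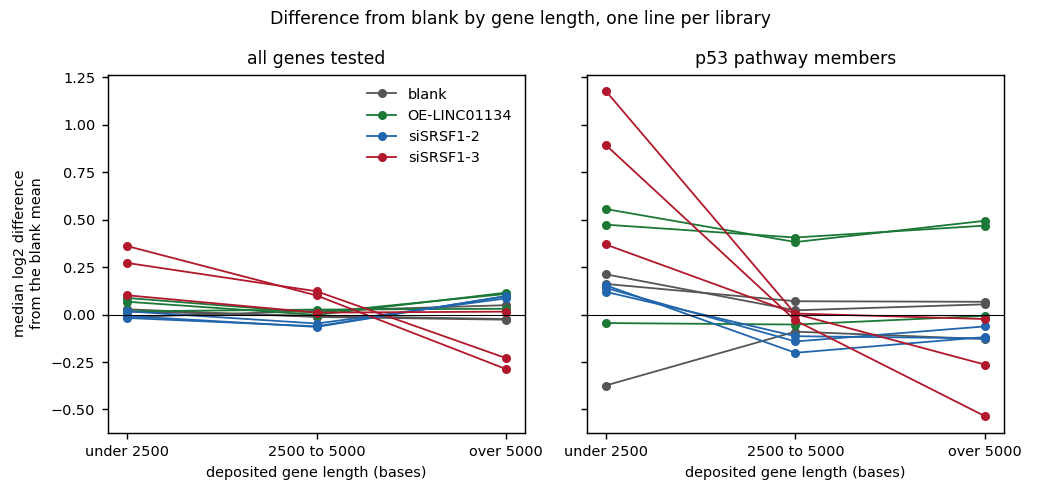
Median log2 difference from the blank mean (vertical axis) by deposited gene length in 3 classes (horizontal axis), for all genes tested (left) and for the members (right, 6, 11 and 14 genes), with 1 line per library coloured by group. In siSRSF1-3 replicates 1 and 2 the members run from 0.89 and 1.18 in the shortest class to -0.54 and -0.26 in the longest.

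Of 60 other p53 target genes, 50 were tested. With siSRSF1-3, where 1.26% of all genes passed the threshold, 2 of the 50 did, both lower: CMBL (log2 fold change -1.13, SE 0.15, adjusted p = 0.0426) and RAP2B (-1.09, SE 0.18, adjusted p = 0.0483). Both calls ended without any 1 of the blank libraries or without siSRSF1-3 replicate 1 or 2, with log2 fold changes from -1.15 to -1.11 for CMBL and from -1.17 to -0.98 for RAP2B. Without siSRSF1-3 replicate 3, 3 of the list were higher and 6 lower past the threshold, where 23.9% of all genes passed. With siSRSF1-2, 3 were past it and lower, CMBL (-1.37), PGF (-1.32) and IKBIP (-1.10), where 4.95% of all genes passed. At any fold 3 were higher and 9 lower, where 14% and 12.8% of all genes were. The call of IKBIP ended without blank replicate 1 (-0.87) and without siSRSF1-2 replicate 1 (-1.07, adjusted p = 0.0501), while CMBL and PGF passed with any 1 library left out. Without blank replicate 1, 8 were higher and 28 lower at any fold, where 27.4% and 24.7% of all genes were. None passed with OE-LINC01134 when all libraries were used. Without its replicate 2, 2 were higher and 4 lower past the threshold, where 8.78% of all genes passed. The medians with all libraries were -0.14, -0.16 and -0.01 for siSRSF1-3, siSRSF1-2 and OE-LINC01134. CDKN1A, which encodes the cell cycle inhibitor p21, had 90.6, 178 and 172 FPKM in blank cells, 157, 153 and 156 with siSRSF1-2, 292, 247 and 199 with siSRSF1-3 and 137, 76.2 and 139 with OE-LINC01134. BAX, the pore-forming apoptosis effector, had 77.6, 73.3 and 73.4 FPKM in blank cells and 258, 216 and 109 with siSRSF1-3 (log2 fold change 1.28, SE 0.34, adjusted p = 0.0917). It had 68.9, 67.3 and 67.2 with siSRSF1-2, all below the blank range. In the list, 30 of 50 log2 fold changes with siSRSF1-3 were negative. Groups did not overlap in 7 genes that were higher (19.2% of all genes) and 17 that were lower (18% of all genes). Among the latter were APAF1 (-2.22, SE 0.49, adjusted p = 0.0659), PERP and PMAIP1. CDKN1A, BAX, APAF1, PERP and PMAIP1 were chosen after their values were seen.

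Of 20 genes that act on p53, 19 were tested and none passed the threshold in any comparison when all libraries were used. Without siSRSF1-3 replicate 3, 1 was higher and 3 lower past it against blank, where 23.9% of all genes passed. Against siSRSF1-2, 1 was then higher and 6 lower, where 30.6% of all genes passed. In the fit over all 4 groups, 1 was higher and 2 lower with siSRSF1-3 against blank, where 13.8% of all genes passed. With siSRSF1-2, ATM, CHEK2, EP300 and CREBBP were higher at any fold, with log2 fold changes from 0.34 to 0.73, and RCHY1, a ubiquitin ligase, was lower. Of all genes, 14% were higher by the same rule. The number of regulators higher was 9 without blank replicate 1, where 27.4% of all genes were. It was 2 or 1 with any other library left out, where 5.16% to 9.62% of all genes were higher.

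Among 8 ribosomal proteins known to bind MDM2, siSRSF1-3 replicates 1, 2 and 3 had median log2 differences from blank of 1.67, 1.14 and 0.14. None passed the threshold with siSRSF1-3 when all libraries were used. Without siSRSF1-3 replicate 3 all 8 passed it and were higher, where 23.9% of all genes passed. In the fit over all 4 groups 3 passed it, where 13.8% of all genes did. With siSRSF1-2, 5 of 8 were lower at any fold (RPL23, RPL26, RPS3, RPS14 and RPS27), with log2 fold changes from -0.47 to -0.20. By the same rule 12.8% of all genes were lower. The count was 8 without blank replicate 1, where 24.7% of all genes were lower. It was at most 2 with any other library left out, where 5.27% to 8.82% of all genes were lower. Other ribosomal proteins were not set beside these 8, so the rise cannot be called particular to those that bind MDM2. The list was not recomputed under other scalings, and siSRSF1-3 replicates 1 and 2 had the highest FPKM sums (611084 and 410612). The part of these 8 in the values of the members was not tested.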

How the data were processed

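The authors deposited FPKM per gene for 12 libraries (150 bp paired ends), with gene lengths and coordinates. They compared groups with a test for read counts, whose output was not used here. The aligner, counter and human genome build are not given in the sources used here. The labels name mouse as the organism, but the genes carry human Ensembl identifiers. The labels and the supplementary methods name different library kits. FPKM times length was a whole multiple of 1 step in every library (100% of values within 0.01 of a whole read), which gave reads per gene. The step also showed that the FPKM are scaled by a library size that differed from each library's own reads on genes (ratio 0.712 to 1.09). The ratio was lowest in siSRSF1-3 replicates 1 and 2 (0.712 and 0.888). Their FPKM summed to 611084 and 410612, where the other libraries had 281051 to 324607.

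Here limma 3.58.1 (R 4.3.3; lmFit, then eBayes with a trend) was run on log2(FPKM + 0.1) for the 3 + 3 libraries of a comparison. Genes below 0.5 FPKM on average were left out, which kept 17538. P-values were Benjamini-Hochberg adjusted over all of them. The fit was tested on simulated libraries of equal spread, none of which stood apart and which had no length trend. That test therefore does not cover the uneven groups seen here. The members and the other lists (targets, regulators, MDM2-binding ribosomal proteins, DREAM genes, markers) were chosen with earlier results of these data known. Values in every library are given for MDM2 and for the 5 members with the smallest p in each comparison. Other members with values were chosen after these were seen. Alternatives were other pseudocounts (1, 0.01), filters (none, mean of 1), scalings, no trend, 1 fit over 4 groups, a replicate block, voom, and each library left out. Length correction (loess span 0.5), averaging of near-identical libraries and joint omission of libraries, and the omission of each library for the other lists, were added after seeing the data. No sequence is shown, since the reference at hand was mouse. A result for 1 gene of the regulator list is not reported here.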

Additional observations from a re-analysis of the deposited data

Results flagged for a closer look

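In 3 members, every siSRSF1-2 library lay on one side of the blank mean and every siSRSF1-3 library on the other. How many of all genes show that pattern was not counted, so the number of members cannot be judged. PHLDA3 had log2 fold changes against blank of -0.15 with siSRSF1-2 and 0.81 with siSRSF1-3, and the direct comparison gave a difference of 0.96 (limma adjusted p = 0.0801). ZMAT3 had 0.47 and -0.46, a difference of -0.93 (adjusted p = 0.0725). TIGAR had -0.16 and 0.15, a difference of 0.30 (adjusted p = 0.267). None of the 3 differences passed the threshold with all libraries. Those of PHLDA3 and ZMAT3 passed it without siSRSF1-3 replicate 3, where 30.6% of all genes passed. Groups of 3 libraries were too small for a test of single outlying libraries.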

How the results depend on the processing

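The count of members past the threshold was 0 in every comparison under both other pseudocounts, both filters, both scalings, no trend, the replicate block, voom and the removal of the length trend. In 1 fit over 4 groups it moved to 3 for siSRSF1-3 against blank (9.68%, where 13.8% of all genes passed). It moved to 2 there for siSRSF1-3 against siSRSF1-2 (6.45%, where 15.6% of all genes passed). With both libraries that stand apart left out, it was 2 for OE-LINC01134, PPM1D and SERTAD1 (6.45%, where 13.9% of all genes passed). With siSRSF1-3 replicates 1 and 2 left out together, the log2 difference of RRM2B between the siRNAs was 1.04. With no minimum fold change, the count was 8 for siSRSF1-2 (25.8%, where 26.8% of all genes passed). With each library left out it ran from 0 to 8, 0 to 0, 0 to 2 and 0 to 9 for siSRSF1-3, siSRSF1-2, OE-LINC01134 and siSRSF1-3 against siSRSF1-2. A lone or paired library left in a group is assumed to vary like the others. The count at any fold with siSRSF1-2 ran from 4 to 19 with each library left out, and was 0 in 1 fit over 4 groups and 0 with near-identical libraries averaged. The cause was not tested.

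The median for siSRSF1-3 against blank was -0.30 with own read totals and -0.48 with an equal FPKM sum, where the median of all genes was -0.26 and -0.44. It was -0.0753 with no filter, -0.0166 with the length trend removed, 0.0002 with libraries averaged and 0.0055 with siSRSF1-3 replicates 1 and 2 left out, and ran from -0.0559 to 0.0955 with each library left out. For siSRSF1-2 it was -0.11 with a pseudocount of 1, -0.0905 with own read totals, -0.0040 with an equal FPKM sum and -0.0559 with the length trend removed (-0.1397 to -0.0871 with each library left out). For OE-LINC01134 it ran from 0.16 to 0.41. For siSRSF1-3 against siSRSF1-2 it was -0.15 with own read totals and -0.42 with an equal FPKM sum (all genes -0.32 and -0.58), 0.12 with the length trend removed, and 0.0823 to 0.1877 with each library left out. MDM2 turned to 0.18 for siSRSF1-3 against blank with the length trend removed, and to -0.29 and -0.56 against siSRSF1-2 under the 2 scalings. Against siSRSF1-2 it ran from -0.0283 to 0.079 with each library left out (-0.0283 without siSRSF1-3 replicate 1, -0.0260 without replicate 3). Over all alternatives, the log2 fold change of siSRSF1-3 against blank ran from 0.46 to 1.03 for AEN and from 0.42 to 1.025 for TRIAP1. It ran from 0.25 to 0.96 for MDM4, from 1.18 to 2.06 for GDF15 and from -1.11 to -0.48 for SESN1.

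Same-numbered libraries did not deviate together (correlations from -0.081 to 0.042), so a replicate block has no basis beyond the number. With the replicate block, 7 members had an adjusted p under 0.05 at any fold with siSRSF1-2. Without the block 8 had (25.8%), where 26.8% of all genes had. The share of all genes with the block is not given here, so the count of 7 cannot be judged. Voom called 587, 982, 348 and 110 of all genes in the 4 comparisons, where the FPKM fit called 221, 868, 149 and 15.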

Other observations

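Genes that fall when p21 engages the DREAM repressor complex, a list of 18 mitotic and S-phase genes, all had negative log2 fold changes with siSRSF1-2 (median -0.59, against 0.02 over all genes). CDC20, an activator of the anaphase-promoting complex (log2 fold change -1.06, SE 0.26, limma adjusted p = 0.0291), and RRM2, a ribonucleotide reductase subunit (-1.05, SE 0.10, adjusted p = 0.00199), passed the threshold, and 9 of 18 had an adjusted p under 0.05 at any fold. The threshold was passed by 4.95% of all genes, and by the latter rule 12.8% of them were lower. Without blank replicate 1 neither passed (-0.75 for CDC20 and -0.96 for RRM2) and the median was -0.39. At any fold 15 were then lower, where 24.7% of all genes were. CDC20 also missed the threshold without any 1 of the siSRSF1-2 libraries (adjusted p from 0.0857 to 0.0996). The count at any fold was then 3, where 5.27% to 5.74% of all genes were lower. With siSRSF1-3 the median was -0.39, or -0.14 without blank replicate 1 and -0.22 without siSRSF1-3 replicate 3. With OE-LINC01134 it was 0.38, or 0.57 without blank replicate 1. None passed the threshold in either with all libraries.

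Of the 7 mesenchymal markers tested, VIM (-1.39, SE 0.11, adjusted p = 0.00148) and THY1 (-1.14, SE 0.22, adjusted p = 0.0153) passed the threshold with siSRSF1-2, both lower. Of all genes, 4.95% passed it. All 7 log2 fold changes were negative, and 5 markers had an adjusted p under 0.05 at any fold, where 12.8% of all genes were lower. VIM passed with any 1 library left out, at -1.26 without blank replicate 1. THY1 did not pass without blank replicate 1 (-0.88) or without any 1 of the siSRSF1-2 libraries (adjusted p from 0.0596 to 0.0642). With all libraries, none passed with siSRSF1-3 or OE-LINC01134. All 7 log2 fold changes were negative with OE-LINC01134. Without OE-LINC01134 replicate 2, 3 markers passed there, all lower, where 8.78% of all genes passed.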
